A study of Mus musculus with 6 samples.

Results

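The chemokines and chemokine receptors were examined in the Braf-mutant murine melanoma line 4434 after 20 days of partial reprogramming. Members were taken by symbol: every probe set annotated to exactly 1 gene named Ccl, Cxcl, Ccr or Cxcr with a number, or Cx3cl1, Cx3cr1, Xcl1, Xcr1, Ackr1 to Ackr4, Pf4 or Ppbp. This gave 88 of 45101 probe sets, which stand for 56 of the 18193 genes measured, 35 ligands and 21 receptors. Of these 56 genes, 36 had 1 probe set and 20 had several, and each gene was represented by whichever probe set had the highest mean. A further 4 probe sets that match a member together with another gene were left out.

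The study compared partially reprogrammed cells (+ dox) with control cells (− dox), 3 arrays each. All cells of both groups carried a lentiviral vector with murine Oct4, Sox2 and Klf4 and a blasticidin resistance gene behind a tetracycline-responsive element, and another vector with the doxycycline-dependent transactivator, driven by the EF1a promoter, and mCherry. The + dox cells received doxycycline and were selected with blasticidin from day 3, whereas medium without doxycycline was used for the − dox cells, so doxycycline, selection and the 3 factors cannot be told apart. It is not stated if arrays within a group derive from separate cultures. The p-values then reflect no more than the scatter of these arrays, and that scatter could be technical.

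Chemokines are small secreted proteins that guide the movement of cells, above all leukocytes, along a concentration gradient. They bind receptors that span the membrane and signal through inhibitory G proteins, while atypical receptors (Ackr genes) bind chemokines without that signal and take them up from the surroundings. Melanoma cells are known both to secrete chemokines, often under control of the transcription factor NF-kB, and to carry chemokine receptors themselves.

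All values are log2 expression after RMA normalisation, with array medians from 5.33 to 5.37. Precision is limited by having 3 arrays in each group. Array + dox 1 lay nearest to the − dox arrays on the first principal component, and − dox 1 stood apart on the next. Over all genes, the count past the test varied from 118 to 1650 when 1 array was left out. Of 12 melanocyte markers 1 passed the test, beside 4.87% of all genes, and the list median was 0.03 with 7 of the 12 positive. That gene, Gpnmb, differed by −2.62 (limma adjusted p = 0.0185, up to 0.0891 without + dox 2, + dox 3, − dox 2 or − dox 3). Mitf and Pmel differed by −0.76 and 0.01 (adjusted p = 0.343 and 0.962). The pigment genes Tyr and Mlana lay below the lowest array's lower quartile (3.84) on every array of both groups. In bulk RNA, fewer cells that express a gene and less RNA per cell cannot be told apart.

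A small number of chemokine genes changed, 5 of them by more than 2-fold. The monocyte attractants Ccl2 and Ccl7, the thymus chemokine Ccl25 and the receptors Ccr1 and Ackr3 were higher in + dox cells, and the T cell and monocyte attractant Ccl5 was lower. These 6 of 56 genes (10.7%) had an adjusted p under 0.05 (here, were called) in limma (two-sided, Benjamini-Hochberg over all genes), beside 4.87% of all genes tested. Ccl2 and Ccl7 were called whichever array was left out, and the other 4 were not called without + dox 2, + dox 3, − dox 2 or − dox 3. By direction, 5 of 56 members were higher, beside 3.07% of all genes, and 1 of 56 was lower, beside 1.8% of all genes. Differences over 2-fold were seen in 5 of 56 members, beside 5.14% of all genes. At an unadjusted p under 0.05 the members stood at 8 of 56 (14.3%) and all genes at 21.7%. The groups did not overlap in 12 of 56 members, 9 higher and 3 lower, beside 26.9% of all genes. The median change, + dox minus − dox, was 0.04 over the members and 0.01 over all genes.

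By the probe set that stood for each gene, the 50 members that did not pass the test lay in a narrow band. Their changes ran from −0.33 to 0.72 on the log2 scale, and 49 of them were under 0.5 in size. The 95% confidence interval of the change stayed within a 2-fold difference in either direction for 47 of the 50. It reached beyond 2-fold for Ccl8, Cxcl10 and Cxcr4. Cxcl1 was counted among the 47 by a probe set at 0.16. Its other probe sets differed by 1.34 and 0.90, with intervals reaching up to 2.76 and 1.91. Many of the 50 were dim. In the mean of both groups 15 members (10 ligands and 5 receptors) lay below 3.84, and 0 of those 15 passed the test. A change in a gene this close to the array's floor may not be measurable.

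**Figure D1:**
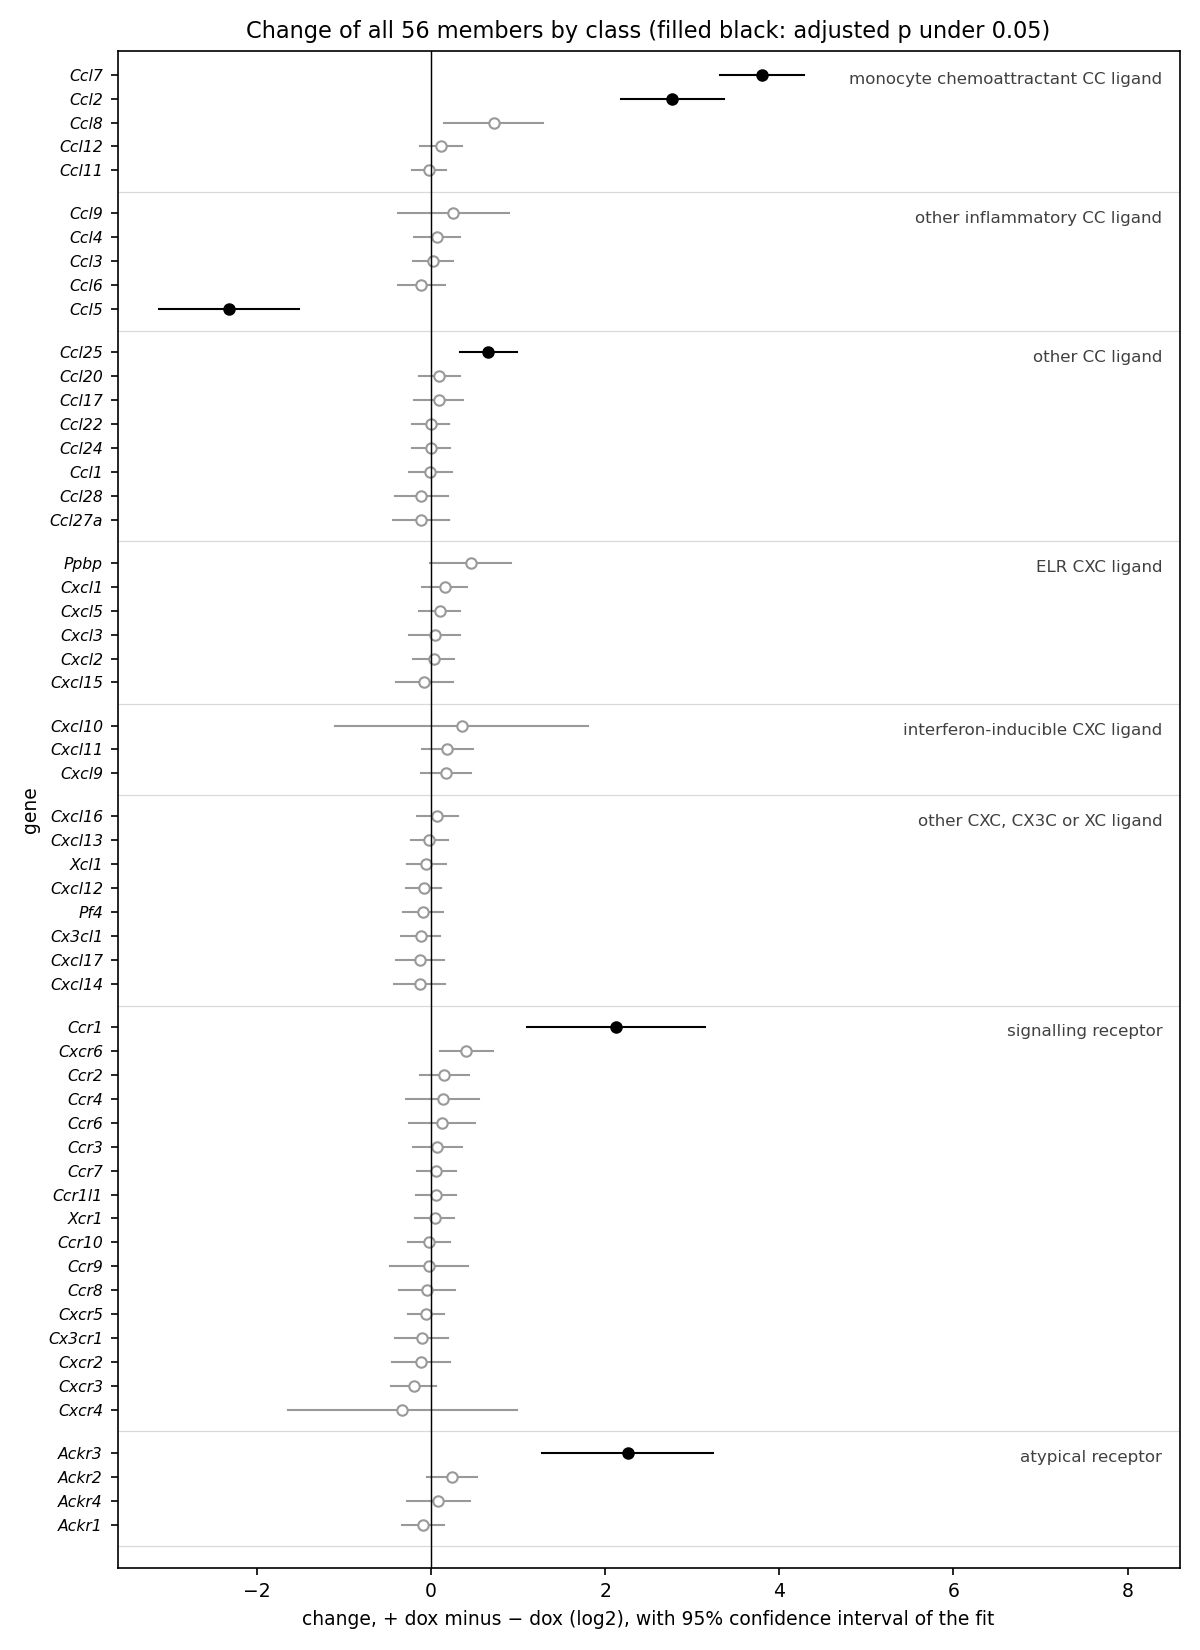
Change of each of the 56 members, + dox minus − dox, on the log2 scale (x axis), with the 95% confidence interval of the limma fit, grouped by class (y axis). Filled points had an adjusted p under 0.05: Ccl7 at 3.80, Ccl2 at 2.77, Ackr3 at 2.26, Ccr1 at 2.12, Ccl25 at 0.66 and Ccl5 at −2.32, while the other 50 gather around 0.

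Ccl2 and Ccl7, both ligands of Ccr2 that draw monocytes, carried the largest rises of the family. Ccl7 was 8.48, 9.17 and 9.10 on + dox arrays 1, 2 and 3, and 4.95, 5.23 and 5.16 on − dox arrays 1, 2 and 3. Every + dox array lay more than 3 log2 units above every − dox array. The means were 8.92 ± 0.38 and 5.11 ± 0.15 (SD, n = 3), a difference of 3.80 (SE 0.20, 14.0-fold, limma adjusted p = 0.000439).

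Ccl2 moved the same way. It was 10.33, 10.96 and 11.03 on the + dox arrays and 7.61, 8.28 and 8.11 on the − dox arrays. The groups were far apart, and array 1 was the lowest of its group on both sides, as it was for Ccl7. The means were 10.77 ± 0.39 and 8.0 ± 0.35 (SD, n = 3), a difference of 2.77 (SE 0.25, 6.84-fold, limma adjusted p = 0.00426). Ccl2 and Ccl7 were also the members that passed when any 1 array was left out, with differences of 2.58 to 3.0 for Ccl2 and 3.68 to 4.02 for Ccl7.

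The class grouped here as monocyte attractants holds 5 genes and includes the eosinophil attractant Ccl11. Ccl2 and Ccl7 passed and Ccl8, Ccl11 and Ccl12 did not, beside 4.87% of all genes called. Ccl8, a ligand of Ccr8 in mouse, was 5.80, 5.83 and 6.67 on the + dox arrays and 5.44, 5.37 and 5.33 on the − dox arrays. The groups did not overlap, but the difference of 0.72 (SE 0.24) had a limma adjusted p of 0.142, and the + dox 3 array stood above the other two. Ccl11, the eosinophil attractant eotaxin, and Ccl12, a mouse monocyte attractant, were dim in both groups, with differences of −0.03 and 0.11.

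These genes sit side by side. In the RefSeq gene order of assembly GRCm38.p6, Ccl2, Ccl7, Ccl11, Ccl12, Ccl8 and Ccl1 form a run of 6 neighbours on chromosome 11. The first 2 of the run passed the test and the other 4 did not, Ccl1 having a difference of −0.01. On the same chromosome Ccl5, Ccl9, Ccl6, Ccl3 and Ccl4 form another run of 5, in which Ccl5 alone passed and was lower. Of the 7 runs of member genes, allowing 1 other gene between neighbours, 3 held a gene that passed the test. The order counted only genes listed as protein-coding, which left out Cxcl11. The run Cxcl5, Ppbp, Pf4, Cxcl3, Cxcl15, Cxcl1 and Cxcl2 on chromosome 5 held 0 of 7. The gene counts of these short runs stand beside 4.87% of all genes called.

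**Figure D2:**
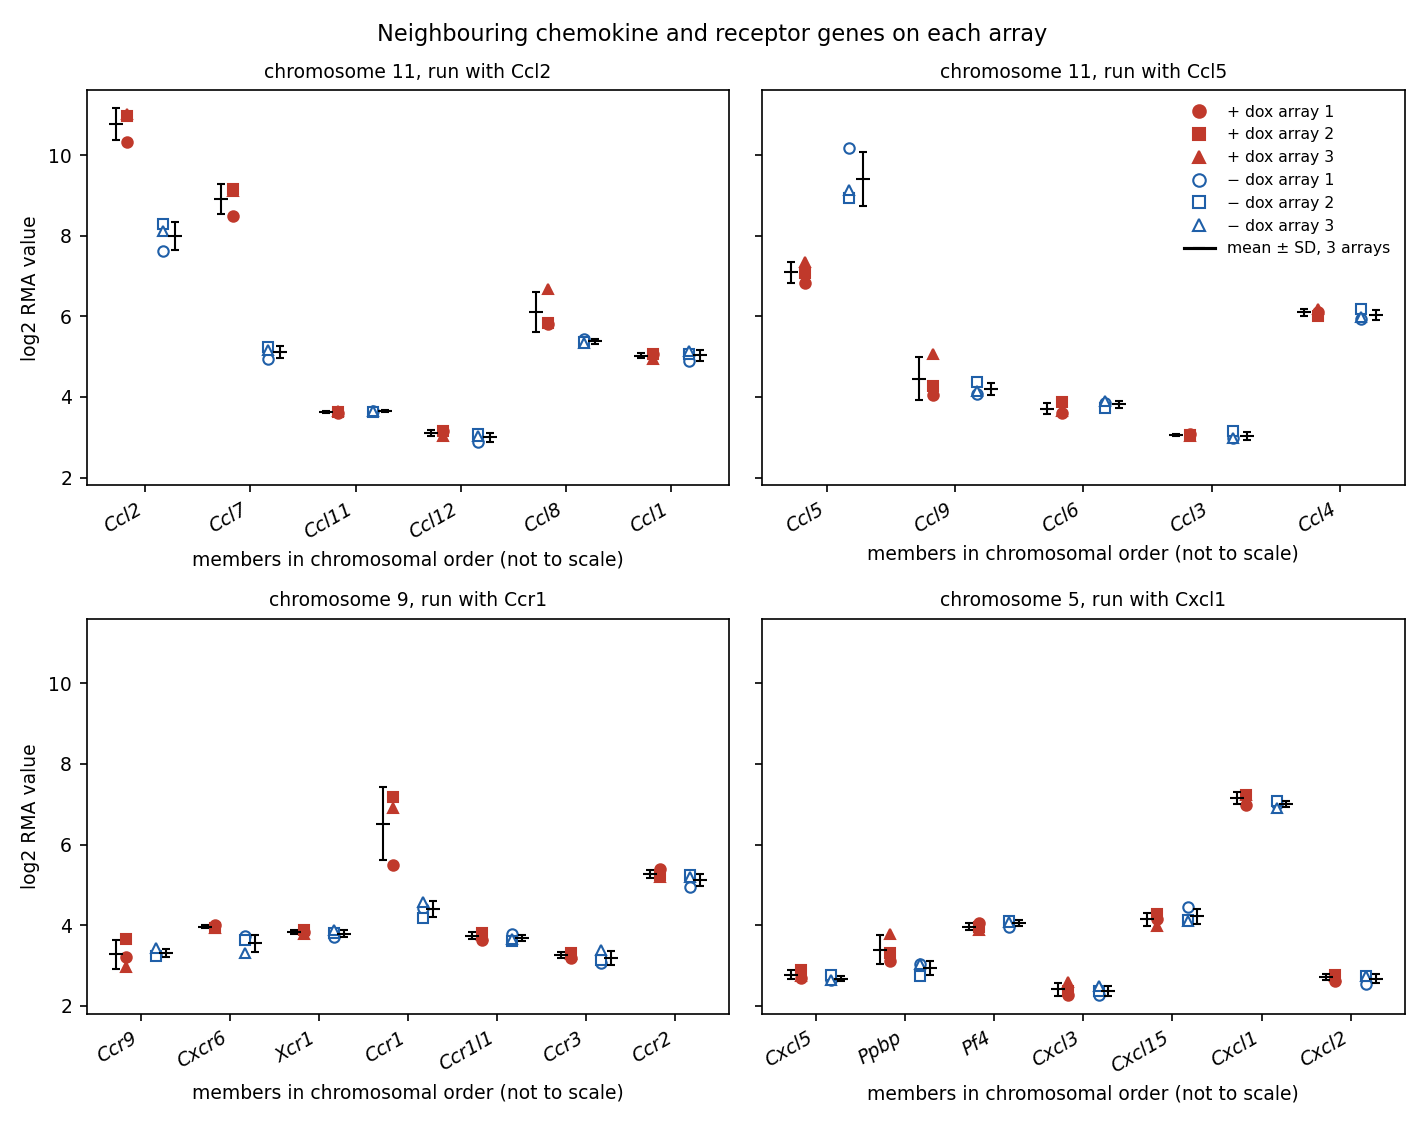
Log2 expression (y axis) of member genes on each array, in their order along 4 runs of neighbouring genes on chromosomes 11, 9 and 5 (x axis, order only, no distances), black bars giving mean ± SD (n = 3). The + dox arrays (filled red) and − dox arrays (open blue) separate widely for Ccl2, Ccl7, Ccl5 and Ccr1 and lie close together for most of their neighbours.

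Ccl5, which attracts T cells and monocytes, was the member that fell. It was 6.83, 7.08 and 7.36 on the + dox arrays and 10.18, 8.93 and 9.13 on the − dox arrays. The groups did not overlap, and − dox 1 was the highest array by over 1 log2 unit. The means were 7.09 ± 0.27 and 9.41 ± 0.67 (SD, n = 3), a difference of −2.32 (SE 0.34, 5.0-fold lower, limma adjusted p = 0.0190). Ccl5 was thus opposite in direction to Ccl2 and Ccl7, which share its CC class.

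The other inflammatory CC ligands, Ccl3, Ccl4, Ccl6 and Ccl9, had differences from −0.11 to 0.26. Ccl9, a myeloid attractant of rodents, was 4.04, 4.26 and 5.07 on the + dox arrays and 4.08, 4.36 and 4.16 on the − dox arrays. The groups overlapped, and the difference of 0.26 (limma adjusted p = 0.652) was unlike in its arrays, only + dox 3 lying above all − dox arrays. Ccl3 and Ccl4, macrophage inflammatory proteins, differed by 0.02 and 0.07.

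Among the 8 remaining CC ligands 1 passed the test, beside 4.87% of all genes. Ccl25, which guides thymocytes and gut lymphocytes through Ccr9, was 8.07, 8.30 and 8.42 on the + dox arrays and 7.67, 7.42 and 7.73 on the − dox arrays. The groups were apart by a small margin, and the difference was 0.66 (SE 0.14, 1.58-fold, limma adjusted p = 0.0483). Over all member probe sets 5 of 88 were called, beside 3.65% of all probe sets with 1 gene. Over probe sets Ccl25 had an adjusted p of 0.0553. Another probe set of Ccl25 differed by 0.32 (adjusted p = 0.224 over all probe sets), and with the mean of both probe sets the difference was 0.49 (adjusted p = 0.0702). The other 7, among them the dendritic cell ligands Ccl17 and Ccl22, ranged from −0.12 to 0.09.

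**Figure D3:**
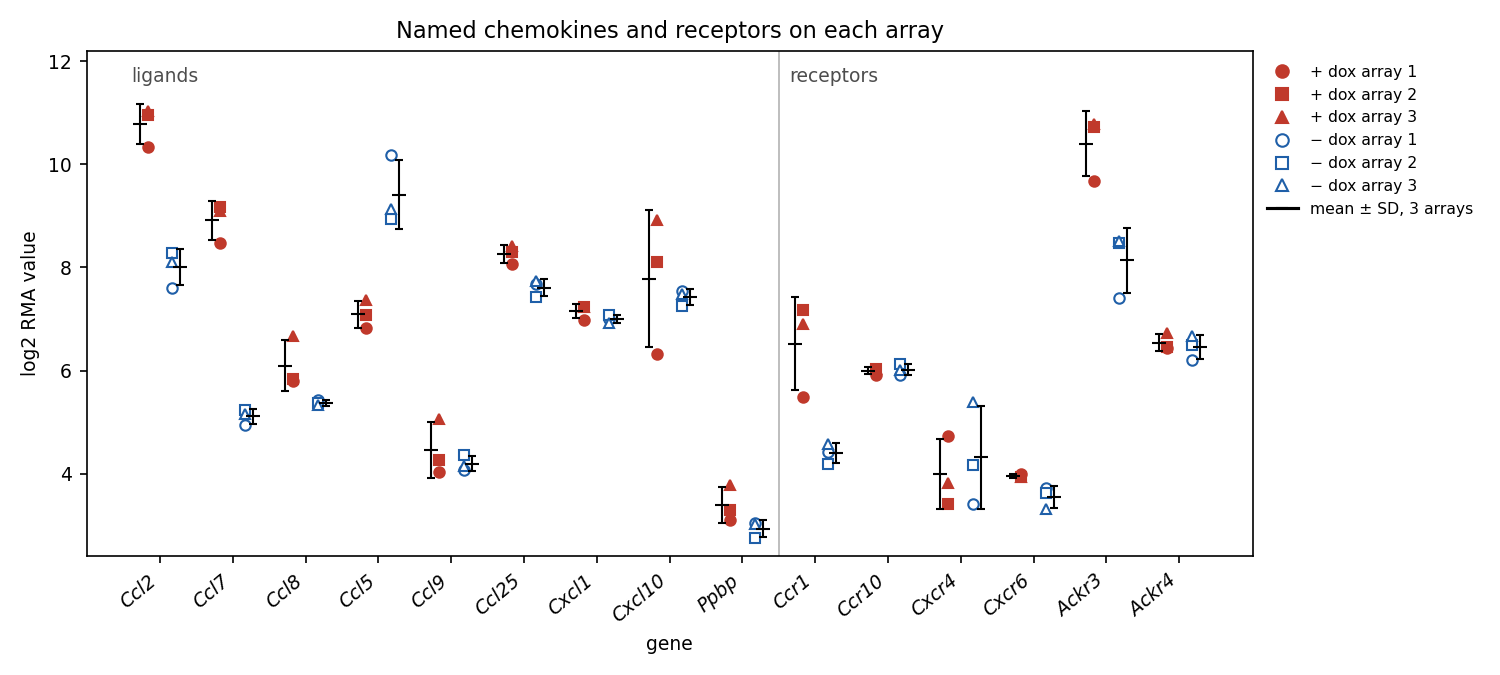
Log2 expression (y axis) of 9 ligands and 6 receptors (x axis) on each of the 6 arrays, + dox in filled red and − dox in open blue symbols (circle, square and triangle for arrays 1, 2 and 3), black bars giving mean ± SD (n = 3). Levels of different genes are not comparable. Ccl2, Ccl7, Ackr3 and Ccr1 lie higher on all + dox arrays and Ccl5 lower, while the Cxcl10 and Cxcr4 arrays of the groups intermix.

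None of the 17 CXC, CX3C and XC ligands passed the test, beside 4.87% of all genes. By the probe set that stood for each gene, 0 had an unadjusted limma p under 0.05, beside 21.7% of all genes. The 6 ELR ligands, of which Cxcl1, Cxcl2, Cxcl3 and Cxcl5 attract neutrophils through Cxcr2, ranged from −0.08 to 0.46. Ppbp, the precursor of platelet basic protein, was 3.10, 3.30 and 3.79 on the + dox arrays and 3.04, 2.75 and 3.03 on the − dox arrays. These values did not overlap between the groups but were all dim, and the difference of 0.46 had a limma adjusted p of 0.239.

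Cxcl1, a ligand of Cxcr2 and a known NF-kB target, gave different answers by probe set. The probe set that stood for it was 6.99, 7.23 and 7.24 on the + dox arrays and 7.0, 7.07 and 6.92 on the − dox arrays, a difference of 0.16 (limma adjusted p = 0.475). Another was 6.12, 6.97 and 8.48 against 5.22, 6.20 and 6.14, a difference of 1.34 (adjusted p = 0.271 over all probe sets). The last was 6.29, 6.85 and 8.02 against 5.86, 6.31 and 6.29, a difference of 0.90 (adjusted p = 0.293 over all probe sets). All 3 probe sets were highest on + dox 3, the groups overlapped in each of them, and none passed the test. No level of Cxcl1 can be given from 1 of them alone.

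The interferon-inducible ligands Cxcl9, Cxcl10 and Cxcl11 attract T cells and NK cells through Cxcr3. Cxcl10 was 6.33, 8.10 and 8.92 on the + dox arrays and 7.55, 7.25 and 7.49 on the − dox arrays. Array + dox 1 lay below all − dox arrays and the other two + dox arrays lay above them. The difference was 0.35 (SE 0.61, 95% confidence interval −1.10 to 1.81, limma adjusted p = 0.807), and without both arrays numbered 1 it was 1.14 (adjusted p = 0.0269, beside 20.1% of all genes called in that fit). Cxcl9 and Cxcl11 differed by 0.17 and 0.19, and another probe set of Cxcl11 by −0.27. That probe set was dim and its groups did not overlap. Its unadjusted limma p was 0.0184, with an adjusted p of 0.144 over all probe sets.

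The promoters of Cxcl1 and Cxcl10 are shown because they hold matches to NF-kB and interferon motifs. The + dox arrays of Cxcl10 spread widely, as did those of the other two Cxcl1 probe sets, while the probe set that stood for Cxcl1 did not. They run from 250 bases before to 50 bases after the RefSeq start site (assembly GRCm38.p6), 5′ to 3′ on the gene's strand. Cxcl1 lies at chr5:90890995-90891294 (+ strand) and Cxcl10 at chr5:92348840-92349139 (− strand). Capitals mark the matches.
Cxcl1: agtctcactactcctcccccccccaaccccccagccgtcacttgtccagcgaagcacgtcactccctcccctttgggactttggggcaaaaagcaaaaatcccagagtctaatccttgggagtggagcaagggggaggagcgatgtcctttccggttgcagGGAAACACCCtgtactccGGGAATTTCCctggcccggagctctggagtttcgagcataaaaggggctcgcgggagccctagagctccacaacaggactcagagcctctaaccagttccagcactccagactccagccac
Cxcl10: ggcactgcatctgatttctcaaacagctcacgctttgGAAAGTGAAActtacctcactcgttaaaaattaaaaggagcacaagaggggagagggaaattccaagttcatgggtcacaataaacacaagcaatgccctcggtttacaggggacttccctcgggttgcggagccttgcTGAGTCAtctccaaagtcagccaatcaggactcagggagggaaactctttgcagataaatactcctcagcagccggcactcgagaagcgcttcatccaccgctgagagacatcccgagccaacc
In Cxcl1 the capitals are kappa-B matches at bases 162 to 171 and 180 to 189, counted from 1 at the 5′ end. In Cxcl10 they are an interferon response match at bases 38 to 47 and an AP-1 match at bases 177 to 183. The motifs were searched on both strands as GGG, any 2 bases, TTTCC (kappa-B), as GAAA, any 2 bases, GAAA (interferon response), as TGANTCA (AP-1) and as TATAAA, and the printed matches did not overlap. The kappa-B letters were in 6 of the 47 member promoters in the table (12.8%, from 43 genes) and in 1.63% of all 32851 promoters, the 6 being those of Ccl20, Ccl9, Ccr3, Cxcl1, Cxcl2 and Cxcl3. Of those 6 genes 0 passed limma's test, beside 4.87% of all genes, and 0 had an unadjusted p under 0.05, beside 21.7%. So few genes cannot show a difference from these shares. Cxcl2, Cxcl3 and Ccr3 were dim in both groups, and Cxcl1 was counted by the probe set that stood for it. Ccl2, Ccl7 and Ccl5 were not among the 43 genes searched. Other forms of the kappa-B motif were not searched, so a promoter without these letters, such as that of Cxcl10, may still hold one. The interferon response letters were in 2 member promoters (4.26%) and 3.44% of all, the AP-1 letters in 9 (19.1%) and 7.81% of all, and TATAAA in 15 (31.9%) and 13.6% of all.

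The 8 other CXC, CX3C and XC ligands changed little. Their differences ran from −0.13 to 0.07, and 7 of the 8 were negative. Cxcl12, the ligand of Cxcr4 and Ackr3, differed by −0.08 (limma adjusted p = 0.639) and the membrane-bound Cx3cl1 by −0.12 (adjusted p = 0.534). In both genes the groups did not overlap, by narrow margins.

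Of 17 signalling receptors 1 passed the test (5.88%), beside 4.87% of all genes. Ccr1, a receptor of myeloid cells that binds Ccl5 and Ccl7, was 5.49, 7.18 and 6.90 on the + dox arrays and 4.43, 4.19 and 4.58 on the − dox arrays. All + dox arrays were above all − dox arrays, with + dox 1 the nearest to them. The means were 6.52 ± 0.91 and 4.40 ± 0.20 (SD, n = 3), a difference of 2.12 (SE 0.43, 4.36-fold, limma adjusted p = 0.0452). Another Ccr1 probe set lay near the floor, at 2.64, 2.75 and 2.73 against 2.31, 2.56 and 2.38, and differed by 0.29 (adjusted p = 0.184 over all probe sets).

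Ccr1 is best known from leukocytes, so leukocyte markers were read beside it. Of 20 markers measured 0 passed the test, beside 4.87% of all genes, and 2 had an unadjusted limma p under 0.05, beside 21.7%. The groups did not overlap in 6 of the 20, 5 higher and 1 lower, beside 26.9% of all genes. The mean log2 level of the list was 4.75 to 4.86 on the + dox arrays and 4.60 to 4.68 on the − dox arrays. Ptprc, the pan-leukocyte marker CD45, was 3.0, 2.86 and 3.08 against 2.91, 2.78 and 2.92, below the lower quartile on every array. S100a9 was also below it on every array, though its groups did not overlap (difference 0.35, limma adjusted p = 0.258). Cd68 was 6.40, 7.06 and 7.12 against 7.14, 4.91 and 4.82, and Itgam was 3.51, 3.95 and 5.84 against 3.20, 3.26 and 3.33, with limma adjusted p-values of 0.323 and 0.301. The smallest p-values of the list were those of S100a8 (0.39, adjusted p = 0.0826) and Cd74 (−0.50, adjusted p = 0.106). In Itgam, as in Ccr1, all + dox arrays lay above all − dox arrays and + dox 1 was the nearest to them, whereas Cd68 was highest on − dox 1. The part of these markers in the Ccr1 result was not tested.

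In gene order Ccr1 belongs to a run on chromosome 9, Ccr9, Cxcr6, Xcr1, Ccr1, Ccr1l1, Ccr3 and Ccr2. In this run 1 of 7 passed, beside 4.87% of all genes. Its neighbours Xcr1 and Ccr1l1 differed by 0.04 and 0.06. Ccr2, the receptor of Ccl2 and Ccl7, differed by 0.15 (SE 0.12, limma adjusted p = 0.517), and its 4 probe sets ranged from 0.06 to 0.27. Both ligands rose, and the change of Ccr2 did not pass the test. Cxcr6, the receptor of Cxcl16, was 4.0, 3.94 and 3.93 against 3.72, 3.63 and 3.31, with no overlap and a difference of 0.40 (adjusted p = 0.130).

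Cxcr4, the receptor of Cxcl12, spread widely in both groups. It was 4.74, 3.42 and 3.83 on the + dox arrays and 3.41, 4.18 and 5.39 on the − dox arrays. The arrays of the groups intermixed, and the difference of −0.33 (SE 0.55, limma adjusted p = 0.799) had a 95% confidence interval of −1.65 to 0.99. Ccr10, the receptor of Ccl27 and Ccl28, was 5.92, 6.03 and 6.04 against 5.91, 6.13 and 6.02, a difference of −0.02. The remaining signalling receptors ranged from −0.20 to 0.13.

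Of the 4 atypical receptors 1 passed the test, beside 4.87% of all genes. Ackr3, which binds Cxcl12 and Cxcl11 and clears Cxcl12, was 9.67, 10.73 and 10.79 on the + dox arrays and 7.41, 8.48 and 8.52 on the − dox arrays. The groups did not overlap, and array 1 was the lowest of its group by about 1 log2 unit on both sides. The means were 10.40 ± 0.63 and 8.14 ± 0.63 (SD, n = 3), a difference of 2.26 (SE 0.41, 4.79-fold, limma adjusted p = 0.0348). Ackr2, a scavenger of inflammatory CC chemokines, differed by 0.24 with no overlap (adjusted p = 0.319), and all 3 of its probe sets were higher, by 0.18 to 0.32. Ackr4, a scavenger of Ccl19, Ccl21 and Ccl25, was 6.44, 6.45 and 6.73 against 6.21, 6.49 and 6.67, a difference of 0.08, and Ackr1 differed by −0.09.

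The promoters of Ackr3 and Ccr1, the receptors that were higher, are shown in the same way. Ackr3 lies at chr1:90203730-90204029 (+ strand) and Ccr1 at chr9:123968643-123968942 (− strand).
Ackr3: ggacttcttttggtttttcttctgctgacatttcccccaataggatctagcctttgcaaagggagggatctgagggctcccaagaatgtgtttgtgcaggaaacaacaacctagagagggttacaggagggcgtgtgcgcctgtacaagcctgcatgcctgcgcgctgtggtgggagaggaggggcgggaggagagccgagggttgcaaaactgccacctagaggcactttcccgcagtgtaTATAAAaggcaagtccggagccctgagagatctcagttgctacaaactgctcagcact
Ccr1: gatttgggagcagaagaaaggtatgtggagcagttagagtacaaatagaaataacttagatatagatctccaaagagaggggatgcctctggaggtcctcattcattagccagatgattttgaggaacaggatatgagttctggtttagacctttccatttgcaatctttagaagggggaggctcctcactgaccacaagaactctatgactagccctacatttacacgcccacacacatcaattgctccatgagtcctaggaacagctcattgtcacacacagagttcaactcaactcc
The Ackr3 capitals mark a TATAAA match at bases 243 to 248, next to the start site, and the Ccr1 window held none of the 4 motifs searched. A match is a description of the letters, not a site.

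The calls of the smaller changes depended on which arrays were used. Array + dox 1 was the lowest of the + dox arrays for 6 of the 6 called genes, and it lay nearest to the − dox mean for 5 of them, all but Ccl5. Leaving out + dox 2, + dox 3, − dox 2 or − dox 3 left Ccl2 and Ccl7 as the called members, with 118 to 168 genes called in all. Ackr3, Ccl5, Ccr1 and Ccl25 kept their direction in those fits, with limma adjusted p-values up to 0.135, 0.0891, 0.166 and 0.170, and Ccr1 and Ccl25 were also lost without − dox 1. Without + dox 1 all 6 were called, beside 9.07% of all genes. Without both arrays numbered 1 the differences were 3.94 for Ccl7, 2.80 for Ccl2, 2.26 for Ackr3 and 2.66 for Ccr1. They were 0.79 for Ccl25 and −1.81 for Ccl5, and all 6 were called. In that fit 7 of 56 members (12.5%) were called, beside 20.1% of all genes.

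**Figure D4:**
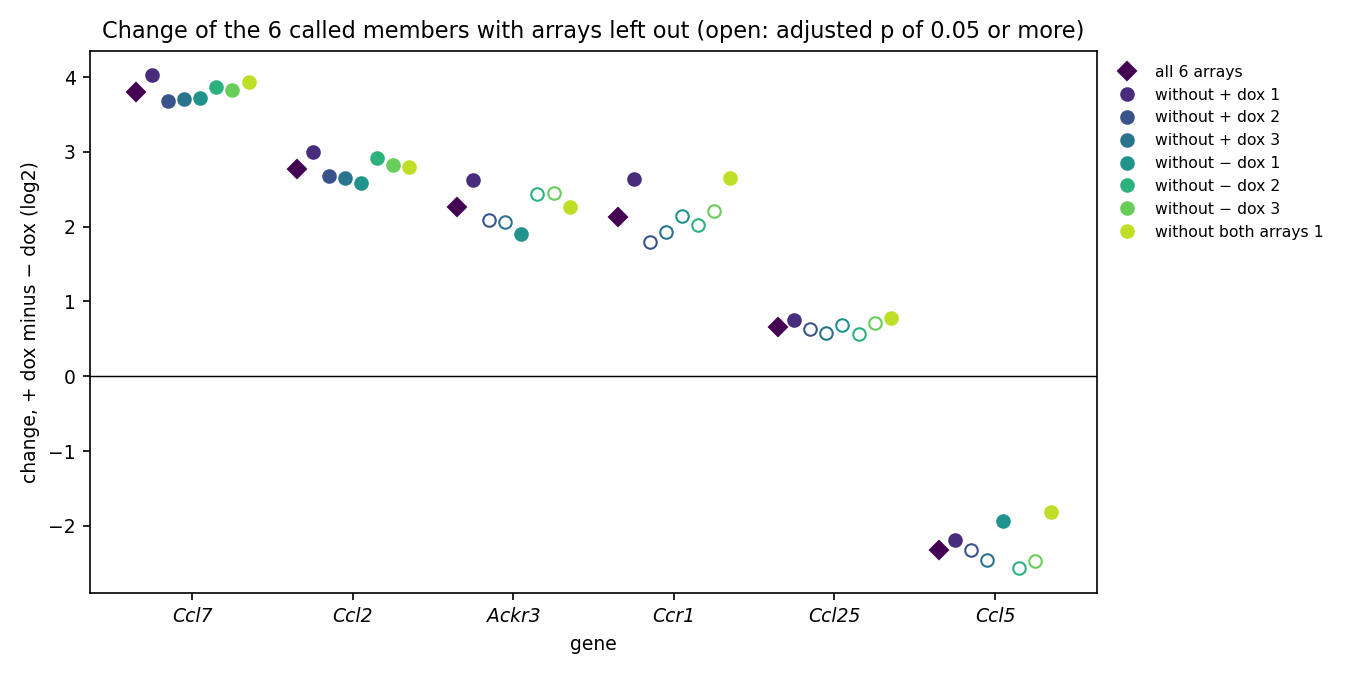
Change, + dox minus − dox, on the log2 scale (y axis) for the 6 called members (x axis) with all 6 arrays (diamond), with each array left out in turn and without both arrays numbered 1 (circles), filled where the adjusted p was under 0.05. Ccl2 and Ccl7 are filled throughout, and the other 4 keep their direction but lose the call in at least 4 of the 6 fits that leave out 1 array.

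Genes around the chemokine system were counted from lists. Of 19 NF-kB pathway genes 2 passed, both higher, with a list median of 0.15. The subunit gene Rel was 6.88, 7.09 and 7.04 on the + dox arrays and 5.48, 6.0 and 5.93 on the − dox arrays, a difference of 1.20 (limma adjusted p = 0.0158). Tnip1, an inhibitor that acts with A20, was 10.48, 10.93 and 11.08 against 9.20, 9.79 and 9.66, a difference of 1.28 (adjusted p = 0.0284). The groups did not overlap in either gene.

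Of 23 inflammatory cytokines and receptors 1 passed, also higher, with a median of 0.15. Changes ran from −1.79 (Il1r1, limma adjusted p = 0.0533) to 1.83 (Il33, adjusted p = 0.175). The groups did not overlap in 11 of the 23, 8 higher and 3 lower, beside 26.9% of all genes. Il6ra, the receptor chain that binds interleukin-6, was 7.22, 7.27 and 7.46 against 5.90, 6.09 and 6.32, a difference of 1.21 (limma adjusted p = 0.00985), with no overlap. Of 28 signal transducers of chemokine receptors 4 were higher and 0 lower, with a median of 0.12. These were Rgs2, a regulator that shortens G protein signals (1.79, adjusted p = 0.0483), the G protein gamma subunits Gng12 (1.05, 0.0260) and Gng2 (0.70, 0.0195), and Pik3r5, a regulatory subunit of the PI3-kinase that G proteins switch on (0.72, 0.0264).

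Of 25 genes for the presentation and processing of chemokines 0 were called higher and 1 was called lower, with a median of −0.16. The groups did not overlap in 10 of the 25, 1 higher and 9 lower, beside 26.9% of all genes. Sulf2 had the largest change of the list, −2.12, and did not pass (limma adjusted p = 0.0635). The protease Mmp9 was 7.97, 7.86 and 6.73 on the + dox arrays and 9.54, 9.27 and 9.60 on the − dox arrays, a difference of −1.95 (limma adjusted p = 0.0291), and the groups did not overlap. Of 18 other chemoattractants and their receptors 1 passed, Cmtm3, a chemokine-like family member, which was lower by 0.89 (adjusted p = 0.0384) at a list median of 0.07. The counts in these lists stand beside the same 4.87% of all genes. Rel, Tnip1, Il6ra, Rgs2, Gng12, Pik3r5, Gng2, Mmp9 and Cmtm3 kept their direction but lost the call without + dox 2 and without − dox 2, with adjusted p-values of 0.0525 to 0.126 and 0.0530 to 0.142. Most were also lost without + dox 3 or − dox 3, and Rgs2 without + dox 1 (adjusted p = 0.0772). With the replicate number as a block Rgs2 (adjusted p = 0.0604), Gng12 (0.0926), Pik3r5 (0.0793), Gng2 (0.0723), Mmp9 (0.0751) and Cmtm3 (0.100) were not called. With the mean of its probe sets Gng2 differed by 0.19 (adjusted p = 0.382), since another of its probe sets was lower in + dox cells.

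**Figure D5:**
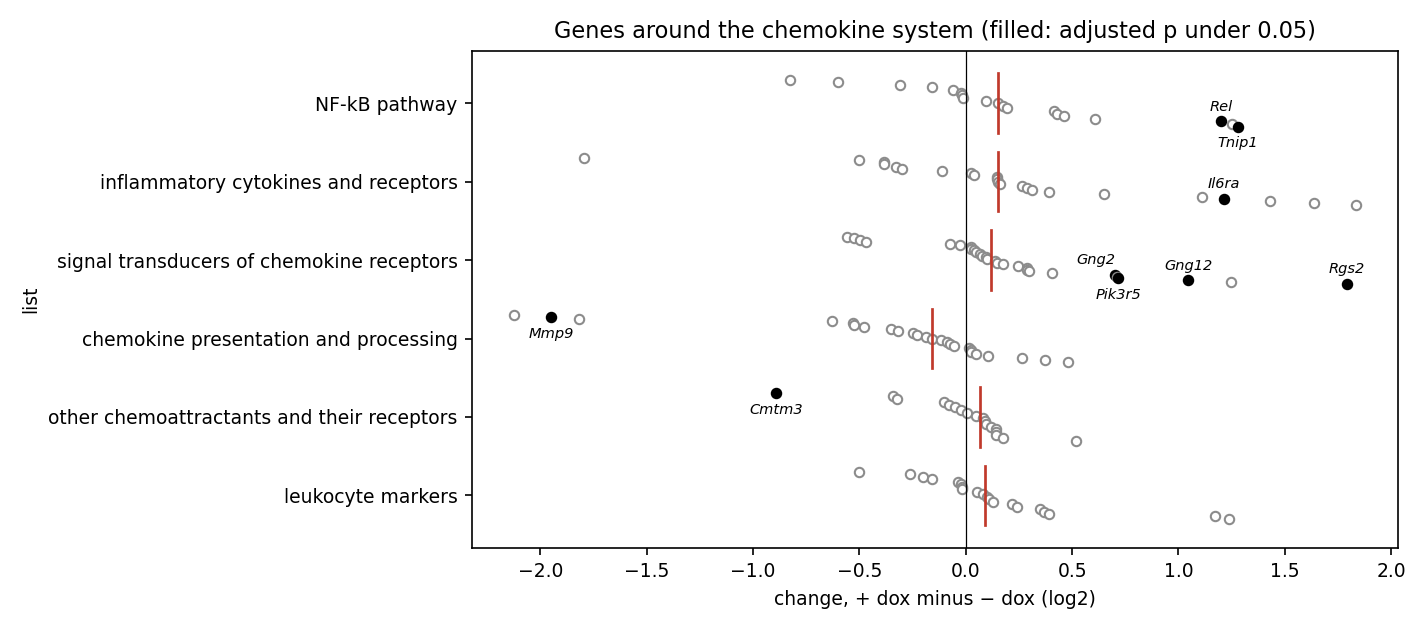
Change, + dox minus − dox, on the log2 scale (x axis) for every measured gene of 6 lists (y axis), filled where the adjusted p was under 0.05, with a red line at each list's median. The medians lie between −0.16 and 0.15, and the filled genes are Rel, Tnip1, Il6ra, Gng2, Pik3r5, Gng12, Rgs2, Mmp9 and Cmtm3.

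Of 12 endothelial and 12 fibroblast markers 0 passed the test by limma, beside 4.87% of all genes. At an unadjusted limma p under 0.05 the counts were 1 and 2, beside 21.7% of all genes. The endothelial genes with the smallest p-values were Tek (1.61, limma adjusted p = 0.219), with + dox 1 the highest array, and Eng (0.52, adjusted p = 0.283). The fibroblast genes were Dcn (0.85, adjusted p = 0.0525) and Col3a1 (−1.35, adjusted p = 0.102). Mean log2 levels of the endothelial list were 5.24 to 5.36 on the + dox arrays and 5.03 to 5.09 on the − dox arrays, and those of the fibroblast list 5.82 to 5.88 and 5.64 to 5.95. Without + dox 1 Tek (0.79, limma adjusted p = 0.0222), Dcn (1.01, adjusted p = 0.0191) and Col3a1 (−1.69, adjusted p = 0.0375) were called. In that fit 9.07% of all genes were called. The part of these markers in the chemokine results was not tested.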

How the data were processed

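Total RNA of 3 + dox and 3 − dox samples was hybridised to Affymetrix mouse arrays. The deposited values are log2 expression, which the authors obtained by RMA in Chipster (version not given in the sources used here). All values, between 2.08 and 14.44 with 0 missing, were taken as deposited, and the log2 scale was read from their range and the use of RMA. RMA fits each probe set on all arrays together and compresses low values, so changes of dim genes are understated.

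Genes were named from the platform annotation. Of 45101 probe sets 34945 had 1 gene, 932 had several and 64 were controls. Groups, taken from the labels, were tested by a linear model with group as its single term (limma 3.58.1, lmFit then eBayes, run in R 4.3.3), with Benjamini-Hochberg adjustment over 18193 genes, or over 34945 probe sets where said, and a threshold of 0.05. The test was checked on simulated data, in 5 runs with 200 changed genes each. It recovered 10% of changes of 0.5 on the log2 scale, 60.8% of 1, 86.8% of 2 and 94% of 3. False calls made up 6.54% of its calls. The simulated scatter was independent for each gene, without deviations shared over a whole array such as those of + dox 1 and − dox 1. These rates may therefore not hold for the real arrays. Promoters came from RefSeq tables of assembly GRCm38.p6, which was used for gene order only otherwise.

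The members, the lists and the rule for named genes were chosen with earlier results of these data known. Named were all called members, Ccl2, Ccl7 and Ccl5, the 5 ligands and 3 receptors of highest mean percentile, the 6 largest changes among members not called, and from each list up to 4 called genes or the 2 with the smallest p. Other members named for their class, role or gene order were chosen after their values were seen. So were Ptprc, S100a9, Cd68, Itgam, Tyr, Mlana, Sulf2, Il1r1 and Il33, and the promoters printed. Alternatives were the mean or most variable probe set, all probe sets, filters at 20% and 40%, trend and robust settings, quantile normalisation, median centring, a replicate block, an adjusted p of 0.01, limma's treat test against 2-fold, and arrays left out.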

Additional observations from a re-analysis of the deposited data

How the results depend on the processing

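For 35 results 587 alternative values were computed: 448 kept their direction and their side of the threshold or stayed near their value, 98 lost the threshold, 9 gained it, 24 counts moved and 8 reversed. The 8 were of members not called in any of those fits. With 1 array left out Cxcl10 ran from −0.215 (without + dox 3) to 1.08, Ccl9 from −0.05 (without + dox 3) to 0.465, Ackr4 from −0.04 (without − dox 1, and also below 0 without + dox 3) to 0.19, and Cxcr4 from −0.788 to 0.202 (without − dox 3). Ccr10 ran from −0.0783 to 0.0317 (without − dox 2, and also above 0 without + dox 1), and was 0.0039 after quantile normalisation. The median change of the members ran from 0.01 to 0.07. The 5 members called higher became 3 with the replicate block, 2 at an adjusted p of 0.01 and 2 with treat, which in limma tests for more than 2-fold (Ccl2 and Ccl7), and 2 to 5 with 1 array left out. The 1 called lower, Ccl5, became 0 under those 3 settings and 0 to 1 with 1 array left out. Over all genes the 886 calls became 303 with the replicate block, 128 at 0.01, 51 with treat, 3649 without both arrays numbered 1 and 118 to 1650 with 1 array left out. Ccl25 was lost with the mean of probe sets (adjusted p = 0.0702), the most variable probe set (0.0564) and trend and robust settings (0.0699). The causes of the losses were not tested.

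The labels number the arrays 1 to 3 in both groups. Over all genes, same-numbered arrays did not deviate together (correlations of −0.118, −0.22 and 0.082), and the arrays were treated as unpaired. With the replicate block Ccl5 (limma adjusted p = 0.0677), Ccr1 (0.0885) and Ccl25 (0.101) were not called. The 3 members called with it were Ccl7 (0.00496), Ccl2 (0.00647) and Ackr3 (0.00708, against 0.0348 without the block). In all 3, array 1 was the lowest of its group on both sides. Of the named genes of the other lists, 6 that were called without the block were not called with it.

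Depth of signal limits 15 members, which lay below the lower quartile in both groups. No group was large enough for a check of single outlying arrays, which needs 4.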
